A study of Mus musculus with 7 samples.

Results

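Adipsin and its partners in the alternative pathway of complement were followed at the transcript level in pancreatic islets of db/db mice. The set comprised 9 genes of the 51912 in the count table, picked by symbol through their Ensembl identifiers: Cfd, which encodes adipsin (complement factor D), C3, Cfb, Cfi, Cfp, C3ar1, C5ar1, Cd55 and Cd59a. All 7 mice carried the db/db genotype, which disrupts the leptin receptor and leads to obesity and diabetes. An adeno-associated virus (AAV) for adipsin was given to 3 mice (AAV-Adipsin) and one for green fluorescent protein to 4 mice (AAV-GFP). The vector had been on board for 4 weeks when islets were isolated, and the islets then spent 12 hours in culture, so every group shares the genotype, a vector and the culture step. Each mouse gave 1 library of messenger RNA and was a separate biological replicate. The sources used here do not give the age of the mice or the serotype, promoter and dose of the vectors. The study asked how islet transcription differs under raised systemic adipsin at a time when serum glucose was similar between the groups.

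The alternative pathway is the arm of complement that keeps itself running without antibody. C3b, a fragment of C3, binds factor B, adipsin cuts the bound factor B, and the resulting convertase cuts further C3, while properdin stabilises that convertase and factor I, CD55 and CD59 restrain the cascade at successive steps. The small fragments C3a and C5a act on cells through the receptors C3AR1 and C5AR1. Adipsin is made mainly by fat cells and circulates, and C3a is known to enhance insulin secretion by beta cells.

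The libraries held 31255734 to 39281934 counts in AAV-Adipsin and 29601707 to 43997400 in AAV-GFP, so that the 3 counts taken as the floor for an undetected gene correspond to 0.0750 to 0.0951 CPM in AAV-Adipsin and 0.0667 to 0.103 CPM in AAV-GFP. CPM are counts scaled to the library total times its TMM factor, which corrects for differences in composition. All 10 beta cell markers were detected, and together they made 164061 to 204307 CPM in AAV-Adipsin and 173179 to 203094 CPM in AAV-GFP. In each group replicate 1 is described by a treatment name and the other libraries by a db number. These 2 libraries scored -38.4 and -40.3 on the first principal component of the genes tested, which held 41.3% of the variance. The other 5 scored -4.55 to 40.3. What the style of description records is not stated, and values by style are given below where they touch a member.

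Adipsin transcript was present in islets of all AAV-Adipsin mice and all but undetected in islets of AAV-GFP mice. Cfd had 3965, 839 and 1481 counts in AAV-Adipsin replicates 1 to 3, against 1, 0, 0 and 0 counts in AAV-GFP replicates 1 to 4. Scaled, these were 102.8, 26.6 and 37.0 CPM in AAV-Adipsin, against 0.0222 CPM in AAV-GFP replicate 1 and 0 in the others. The groups did not overlap, and the highest AAV-Adipsin library exceeded the lowest 3.86-fold. Cfd took 0.0103%, 0.00268% and 0.00377% of the counts of the 3 AAV-Adipsin libraries, which placed it above 89.1%, 59.4% and 67.1% of the genes tested in those libraries. The 6285 counts in AAV-Adipsin against 1 in AAV-GFP correspond to a ratio of rates per library total of 8323 (95% interval 1493 to 328779, exact binomial, counting error only).

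In edgeR's quasi-likelihood test with Benjamini-Hochberg adjustment over all genes, the Cfd difference passed the threshold of 0.05 (adjusted p = 0.0420). It was the 1 member of 9 called higher. Cfd was also the only gene called of the 16504 tested, so the share called higher, 0.00606%, is Cfd itself. No member was called lower, where 0% of all genes were. At an unadjusted p under 0.05 in edgeR there was again 1 member of 9, against 1.16% of all genes tested. DESeq2 likewise called Cfd and no other member, where it called 0.0182% of genes higher, Cfd included, and 0.00606% lower. Cfd was also the 1 member whose groups did not overlap, where 2.74% of all genes tested did not overlap. The call by edgeR was lost when AAV-Adipsin replicate 3 was left out (adjusted p = 0.0634), when any AAV-GFP library was left out (0.241 to 1.00) or when both libraries described by treatment names were left out (0.0734), while the fitted log2 fold change was 12.06 to 13.92 in these fits. It was also not made without a filter on low counts (0.667) or by limma-voom (0.834). An exact two-sided permutation test gave p = 0.0571, the smallest that 35 divisions of 7 libraries allow. Cfd passed the filter on low counts only through the AAV-Adipsin libraries. It is also the gene that the AAV-Adipsin vector supplies, so these comparisons of Cfd do not test a response of the islets.

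The gene lies on the plus strand of chromosome 10 (chr10:79890853-79892655, GRCm38), and its annotated exons span 922 bases. Counts per gene hold vector transcripts and transcripts of the animal's own gene together, and these cannot be told apart here. Adipocyte markers bear on fat tissue carried over with the islets, whose part in the Cfd counts was not tested. Of 10 such markers, 7 had at most 10 counts in every library, Lep and Car3 had none, and Adipoq, the defining fat cell hormone, had 2, 0 and 0 counts in AAV-Adipsin and 1, 0, 1 and 1 in AAV-GFP. The summed level of the 10 was 30.5 to 33.8 CPM in AAV-Adipsin and 22.0 to 48.2 CPM in AAV-GFP, nearly all of it Fabp4, which macrophages and endothelial cells also express.

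**Figure D1:**
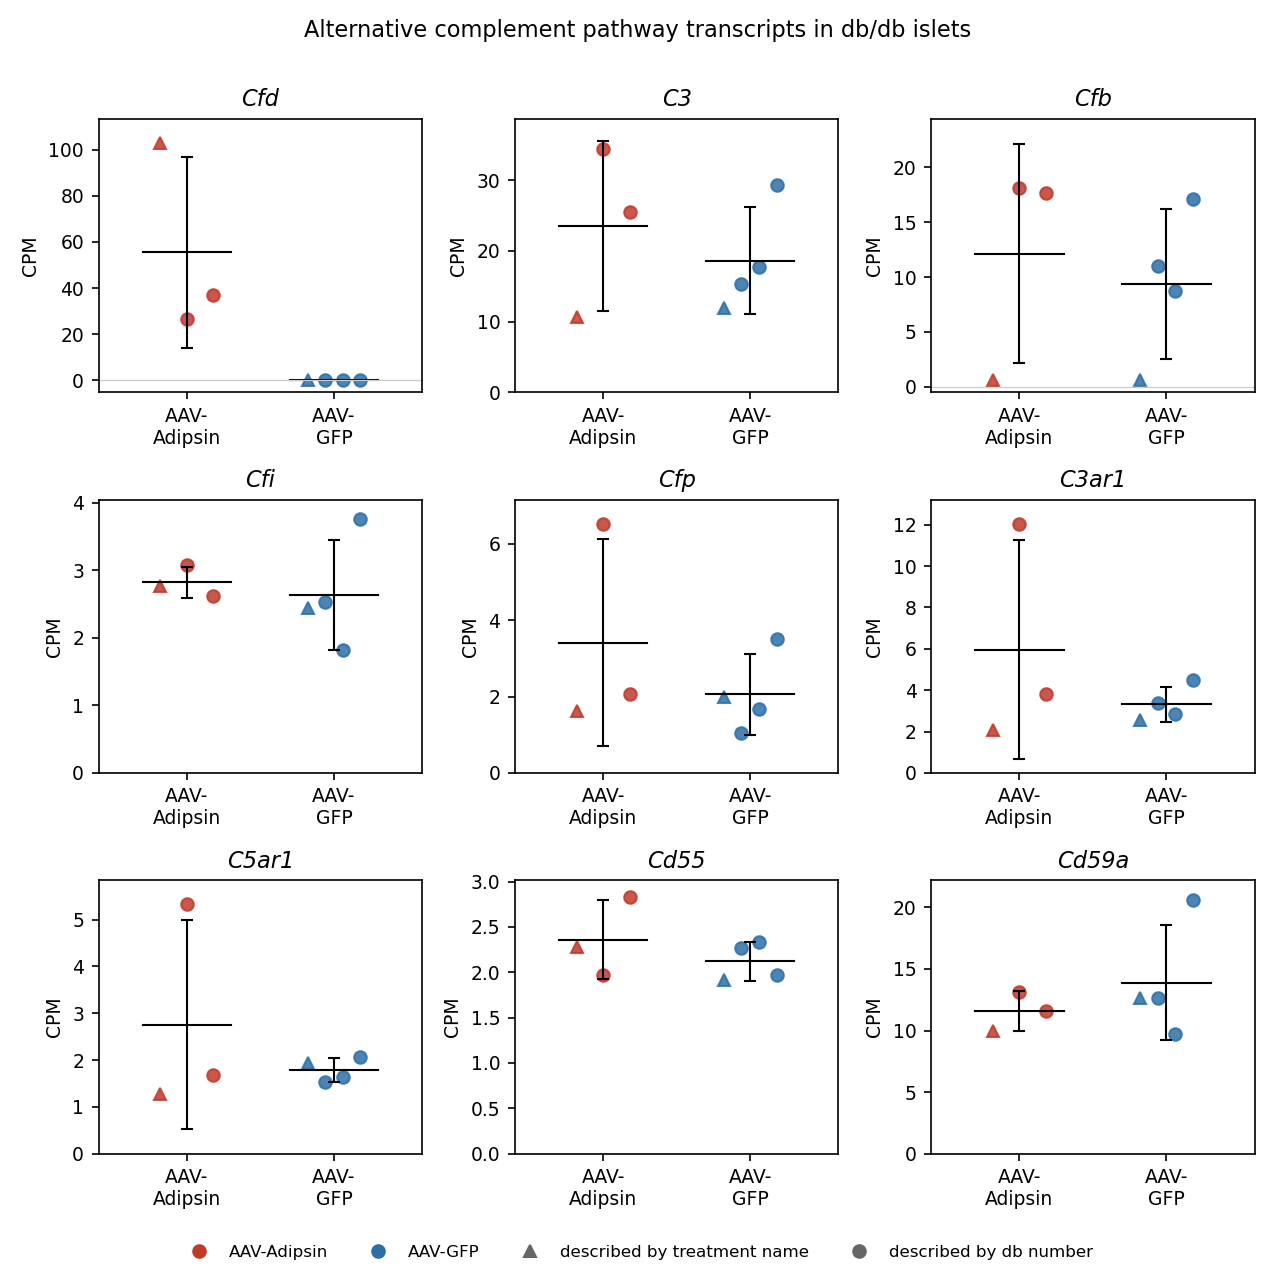
CPM of the 9 members in each library, AAV-Adipsin on the left and AAV-GFP on the right of each panel. Bars give the mean and SD, triangles are the libraries described by a treatment name and circles those described by a db number. Cfd is between 26.6 and 102.8 CPM in AAV-Adipsin and at most 0.0222 CPM in AAV-GFP, and the groups overlap in all other panels.

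The promoter of the mouse's own Cfd is shown because that gene gave 1 count over all AAV-GFP islets. That of C3 is an example of a member whose transcript was present in all libraries and varied between them. Other members did so too, with SDs in log2 CPM of 0.65 for C3, 2.20 for Cfb, 0.84 for Cfp, 0.82 for C3ar1 and 0.66 for C5ar1. No promoter of Cfb or Cfi was available. The promoters shown run 5' to 3' on the gene's strand from 250 bases before to 50 bases after the RefSeq start (GRCm38.p6). Capitals mark matches on either strand to the letters of 5 motifs. These were the TATA box, spelled TATAAA, the box spelled CCAAT, the GC box, spelled GGGCGG, the AP-1 motif, spelled TGANTCA, and a loose C/EBP motif, spelled TTNCNNAA. No match overlaps another in the windows shown.
Cfd promoter: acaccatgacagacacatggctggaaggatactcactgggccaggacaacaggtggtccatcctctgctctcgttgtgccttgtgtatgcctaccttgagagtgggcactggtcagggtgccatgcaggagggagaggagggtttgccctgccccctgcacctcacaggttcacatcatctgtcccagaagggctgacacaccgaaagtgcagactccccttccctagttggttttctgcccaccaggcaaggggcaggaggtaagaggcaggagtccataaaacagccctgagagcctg
C3 promoter: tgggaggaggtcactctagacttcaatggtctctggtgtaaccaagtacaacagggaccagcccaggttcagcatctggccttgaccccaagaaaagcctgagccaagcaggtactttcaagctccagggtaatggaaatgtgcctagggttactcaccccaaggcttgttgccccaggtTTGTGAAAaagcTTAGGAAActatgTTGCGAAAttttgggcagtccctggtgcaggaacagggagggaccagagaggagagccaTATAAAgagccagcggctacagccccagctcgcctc
The Cfd window is chr10:79890603-79890902 on the plus strand and the C3 window chr17:57228087-57228386 on the minus strand. The Cfd window held no match to these letters. The C3 window held 3 matches to the C/EBP letters, at 70, 58 and 45 bases before the start, and TATAAA at 14 bases after the start. Of the 32851 promoters in the table, 40.7% held the C/EBP letters, 37.4% CCAAT, 35.7% GGGCGG, 13.6% TATAAA and 7.81% TGANTCA, and 3.6% held the C/EBP letters at 3 or more places. Of the 7 member promoters in the table, 2 held the C/EBP letters, 2 TATAAA, 2 GGGCGG, 1 CCAAT and 1 TGANTCA.

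The substrates of the pathway, C3 and factor B, were transcribed in islets of both groups, and neither differed by treatment beyond the spread between mice. C3, the central protein of all complement routes (chr17:57203970-57228136, minus strand), stood at 10.7, 34.5 and 25.5 CPM in AAV-Adipsin replicates 1 to 3, against 12.0, 15.4, 17.8 and 29.4 CPM in AAV-GFP replicates 1 to 4. Replicate 1 was the lowest library of each group, and the groups overlapped. Its log2 fold change was 0.34 (SE 0.44, edgeR adjusted p = 1.00), and leaving out AAV-Adipsin replicate 2, the highest library, gave -0.03.

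Cfb, whose product factor B is the protein that adipsin cuts (chr17:34856374-34862518, minus strand), had the widest range of the members other than Cfd. It stood at 0.570, 18.2 and 17.7 CPM in AAV-Adipsin replicates 1 to 3, against 0.622, 11.0, 8.75 and 17.1 CPM in AAV-GFP replicates 1 to 4. Replicate 1 of each group was far below all others, and the highest library exceeded the lowest 31.9-fold. The log2 fold change by treatment was 0.38 (SE 1.21, edgeR adjusted p = 1.00). Leaving out AAV-Adipsin replicate 2 gave -0.02 and leaving out its replicate 3 gave 0.02, while leaving out its replicate 1 gave 0.94. Leaving out AAV-GFP replicate 1 gave -0.01 and leaving out AAV-GFP replicate 4 gave 0.85. With description style as a batch in the model the fold change was 0.44 with a smaller error (SE 0.24) and still did not pass (edgeR adjusted p = 1.00). Within styles, the AAV-Adipsin minus AAV-GFP difference in log2 CPM was -0.12 for the 2 treatment-named libraries and 0.60 for the 5 db-numbered ones.

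Set against description style, Cfb averaged 0.596 CPM in the 2 libraries described by treatment names and 14.6 ± 4.35 CPM in the 5 described by db numbers (SD, n = 5), a log2 difference of -4.61 (SE 0.36) in edgeR with treatment in the model (adjusted p = 9.30e-04). Of all 16504 genes tested, 5.57% were called lower by style and 4.22% higher, and 20 had a more negative style coefficient than Cfb. C3 averaged 11.3 CPM in the libraries described by treatment names and 24.5 ± 7.95 CPM in the others (SD, n = 5), a log2 difference of -1.11 (SE 0.30) that did not pass (edgeR adjusted p = 0.0620). Cfb was the 1 member called lower. C3, Cfb and C3ar1 were the members whose styles did not overlap with the lower values in the libraries described by treatment names, where 18.9% of all genes did so. No member was higher without overlap, where 18.7% of all genes were. Cfd was called higher by style (edgeR adjusted p = 0.00338), which rests on AAV-Adipsin replicate 1 alone, since the AAV-GFP libraries held 1 count in all. The style comparison was chosen after these values were known, and its cause was not tested.

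The genes whose pattern over the 7 libraries lay nearest to that of Cfb were Cxcl1, a neutrophil-attracting chemokine, Slc6a14, an amino acid transporter, and Vnn3, a vanin family gene, at root mean square differences of 0.24, 0.27 and 0.32 in centred log2 CPM. Cxcl1 stood at 0.492, 10.3 and 8.70 CPM in AAV-Adipsin replicates 1 to 3, against 0.356, 7.69, 5.51 and 11.8 CPM in AAV-GFP replicates 1 to 4, low in the same libraries as Cfb. Nearest to C3 were Ier3, an immediate early gene, Osmr, the receptor for oncostatin M, and Stra6l, at 0.10, 0.11 and 0.12. Osmr stood at 3.21, 12.4 and 7.63 CPM in AAV-Adipsin and 3.45, 5.10, 6.08 and 9.69 CPM in AAV-GFP. These likenesses were picked as the closest among 12737 genes and carry no test.

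**Figure D2:**
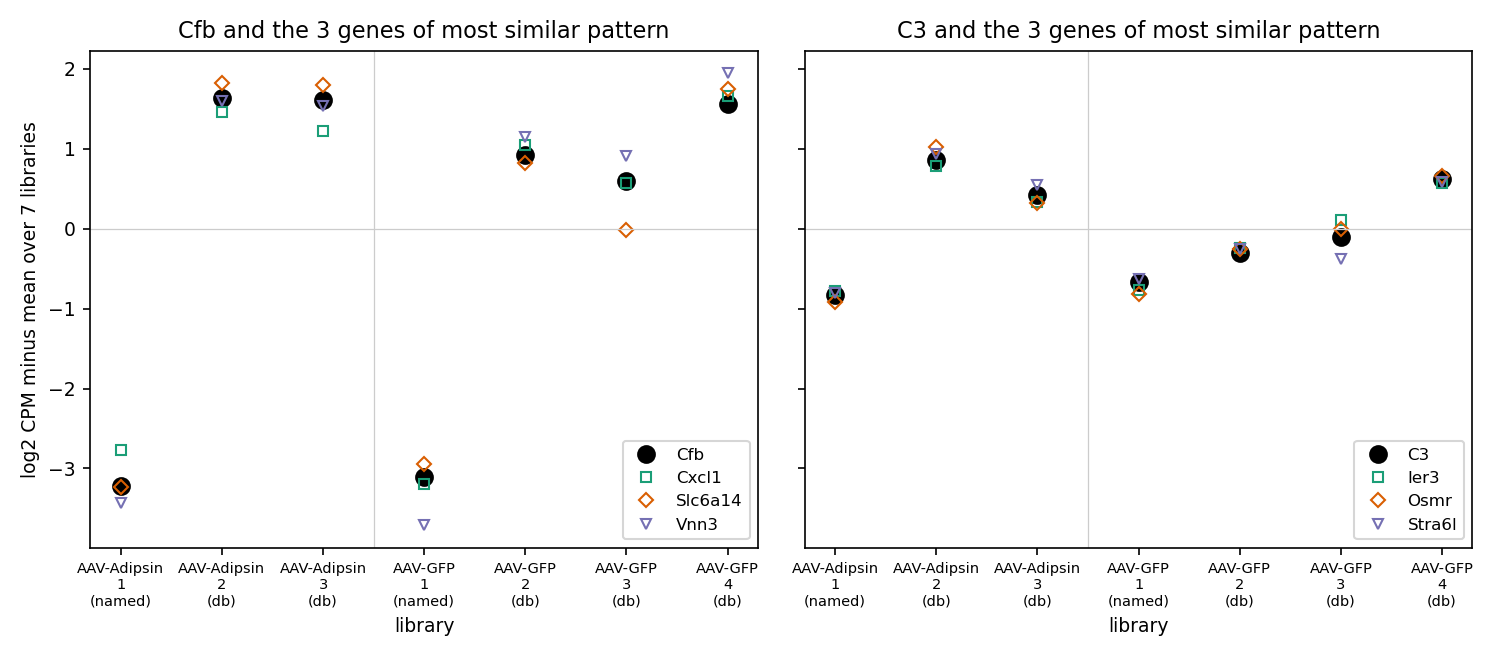
Log2 CPM minus the mean over 7 libraries for Cfb (left) and C3 (right), each with the 3 genes of nearest pattern, by library with AAV-Adipsin before AAV-GFP. Filled circles are the member and open symbols the other genes. The libraries marked named are those described by a treatment name, in which Cfb was at 0.570 and 0.622 CPM and C3 at 10.7 and 12.0 CPM.

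Reads of Cfb need care, because the same-strand annotated gene Gm20547 shares 2246 of its 2825 exon bases (79.5%) and leaves 579 to Cfb alone. Gm20547 had 0 counts in all libraries. How the counting treated reads that fit both genes is not stated in any source used here, so the level of Cfb per length may be understated. Differences of Cfb between libraries use the same bases throughout.

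Properdin and the receptors for the small fragments had their highest values in AAV-Adipsin replicate 2, and none was called. Cfp encodes properdin, which is made by myeloid cells and stabilises the convertase (chrX:20925454-20931555, minus strand). It stood at 1.63, 6.53 and 2.08 CPM in AAV-Adipsin, against 1.98, 1.04, 1.69 and 3.52 CPM in AAV-GFP, with a log2 fold change of 0.73 (SE 0.55). The groups overlapped, since AAV-Adipsin replicates 1 and 3 fell inside the AAV-GFP range.

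C3ar1, the receptor for C3a (chr6:122847138-122856161, minus strand), stood at 2.07, 12.0 and 3.80 CPM in AAV-Adipsin, against 2.56, 3.38, 2.86 and 4.48 CPM in AAV-GFP, with a log2 fold change of 0.84 (SE 0.53). C5ar1, the receptor for C5a (chr7:16246743-16259540, minus strand), stood at 1.27, 5.33 and 1.68 CPM in AAV-Adipsin, against 1.93, 1.53, 1.64 and 2.07 CPM in AAV-GFP, with a log2 fold change of 0.61 (SE 0.46). For all 3 genes the edgeR adjusted p was 1.00, AAV-Adipsin replicate 1 lay below the mean of AAV-GFP, and replicate 2 was the high library. Without AAV-Adipsin replicate 2 the log2 fold changes were -0.14 for Cfp, -0.16 for C3ar1 and -0.27 for C5ar1.

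The same library stood out for the summed level of macrophage markers, though not for Mrc1. That marker was at 13.2 CPM there and 13.8 CPM in AAV-Adipsin replicate 1. The summed level of 12 macrophage markers was 97.6, 244.9 and 113.0 CPM in AAV-Adipsin replicates 1 to 3, against 89.9, 96.5, 88.3 and 126.9 CPM in AAV-GFP replicates 1 to 4, so that AAV-Adipsin replicate 2 was 1.93-fold above the next library. Of these markers 11 were tested, 11 had a fitted value above 0, and none was called. Relative to that sum, C3ar1 stood at 2.12%, 4.90% and 3.36% in AAV-Adipsin and 2.84%, 3.50%, 3.24% and 3.53% in AAV-GFP. C5ar1 stood at 1.30%, 2.17% and 1.48% of the sum in AAV-Adipsin and 2.15%, 1.58%, 1.85% and 1.63% in AAV-GFP, and Cfp at 1.67%, 2.67% and 1.84% in AAV-Adipsin and 2.20%, 1.08%, 1.91% and 2.77% in AAV-GFP. C3ar1 in AAV-Adipsin replicate 2 was thus high relative to the markers as well, whereas C5ar1 and Cfp came within or near the AAV-GFP range. Neutrophil markers were near the floor, with 7 of 10 at no more than 10 counts in every library and a summed level of 0.441 to 3.65 CPM in AAV-Adipsin and 0.556 to 2.34 CPM in AAV-GFP. In bulk islets, a larger number of cells of a type and more RNA per cell cannot be told apart, and the part of macrophage content in these differences was not tested.

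The nearest patterns to C3ar1 were those of Itgb2, the common chain of the leukocyte integrins, Adam8, a leukocyte metalloprotease, and Adgre1, which encodes the macrophage marker F4/80, at root mean square differences of 0.15, 0.18 and 0.18. Adgre1 was one of the macrophage markers summed above. Nearest to C5ar1 were the leukocyte tetraspanin Cd53, Il1rn and Galnt6, at 0.13, 0.16 and 0.19, and nearest to Cfp were Pirb, Lgals3 and Selplg, at 0.17, 0.21 and 0.23.

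**Figure D3:**
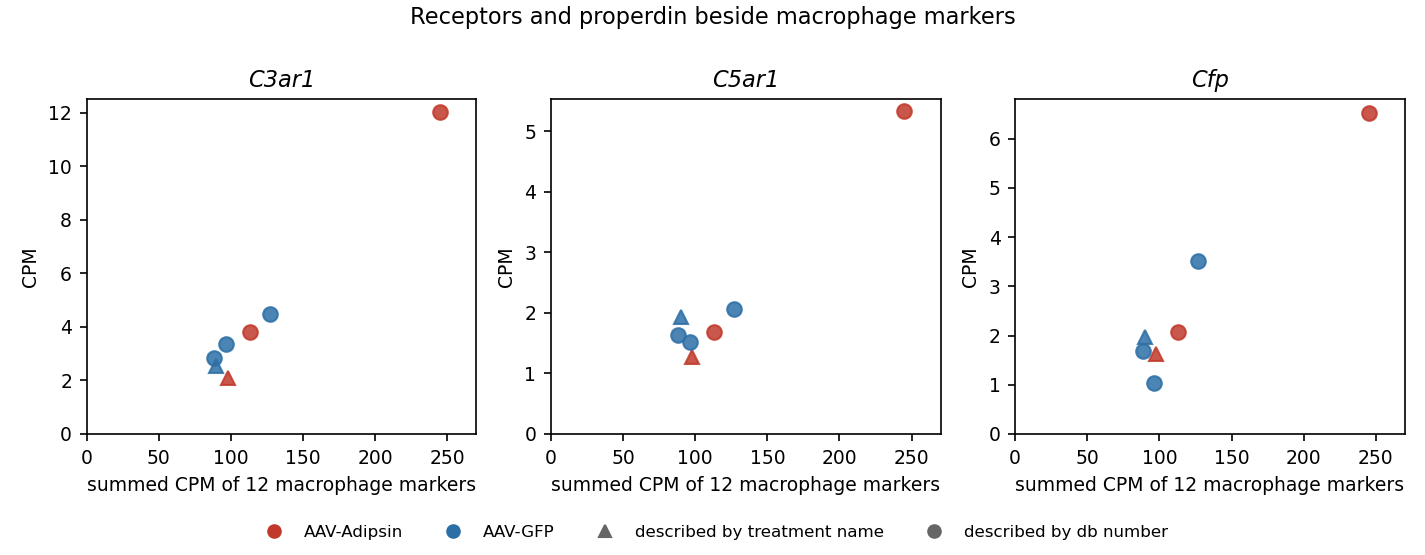
CPM of C3ar1, C5ar1 and Cfp against the summed CPM of 12 macrophage markers, 1 point per library (red AAV-Adipsin, blue AAV-GFP, triangles for libraries described by a treatment name). AAV-Adipsin replicate 2 is the point at 244.9 CPM of markers, where C3ar1 was at 12.0, C5ar1 at 5.33 and Cfp at 6.53 CPM, and the other 6 libraries lie below 130 CPM of markers.

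The inhibitors among the members varied least. Cfi encodes factor I, the protease that inactivates C3b (chr3:129835884-129875332, plus strand). It stood at 2.77, 3.07 and 2.63 CPM in AAV-Adipsin, against 2.45, 2.53, 1.82 and 3.76 CPM in AAV-GFP. All AAV-Adipsin values lay inside the AAV-GFP range, with a log2 fold change of 0.10 (SE 0.25) that became -0.04 without AAV-GFP replicate 3. With AAV-GFP replicate 4 left out instead, it was 0.32. Cd55, which encodes the decay-accelerating factor that dismantles convertases (chr1:130439027-130462744, minus strand), stood at 2.28, 1.97 and 2.83 CPM in AAV-Adipsin, against 1.91, 2.27, 2.34 and 1.97 CPM in AAV-GFP. Its log2 fold change of 0.15 (SE 0.21) became 0.01 without AAV-Adipsin replicate 3 and 0.27 without AAV-Adipsin replicate 2. Its SD in log2 CPM over the 7 libraries, 0.19, was close to the median of 0.20 over all genes tested.

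Cd59a encodes the inhibitor of the membrane attack complex (chr2:104095801-104115354, plus strand). It stood at 9.93, 13.2 and 11.6 CPM in AAV-Adipsin, against 12.7, 12.6, 9.71 and 20.6 CPM in AAV-GFP. AAV-GFP replicate 4 was the high library, and the log2 fold change of -0.26 (SE 0.24) was the 1 negative value among the members. Without AAV-GFP replicate 4 it was -0.01. For Cfi, Cd55 and Cd59a the edgeR adjusted p was 1.00. Over the 8 members other than Cfd the median log2 fold change was 0.36, with 7 of 8 above 0, against a median of -0.01 over all genes tested and 7621 of 16504 above 0. The 8 are not independent of each other, since 5 of them had their highest value in AAV-Adipsin replicate 2.

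AAV-GFP replicate 4, in which both Cd59a and Cfi were highest, also had the highest summed levels of mesenchymal and of endothelial markers. The summed level of 12 mesenchymal markers was 314.6, 428.1 and 396.8 CPM in AAV-Adipsin replicates 1 to 3, against 275.4, 206.0, 266.0 and 650.3 CPM in AAV-GFP replicates 1 to 4. That of 10 endothelial markers was 597.4, 705.9 and 616.2 CPM in AAV-Adipsin, against 526.9, 480.5, 506.1 and 769.8 CPM in AAV-GFP. Single endothelial markers were divided. Plvap, Emcn, Esam and Egfl7 were highest in AAV-GFP replicate 4, Plvap at 187.2 CPM against 131.3 CPM in AAV-Adipsin replicate 2. Pecam1, Cdh5, Kdr, Flt1, Tek and Erg were highest in an AAV-Adipsin library. The mesenchymal markers were highest in AAV-GFP replicate 4 except Pdgfra and Cspg4, which were highest in AAV-Adipsin replicate 3. All of these markers were tested, 11 of the 12 and 9 of the 10 had a fitted value above 0, and none was called. Their part in the values of Cd59a and Cfi was not tested. The nearest patterns to Cfi were those of Emcn, one of the endothelial markers, Cd9, a tetraspanin, and Rgma, at root mean square differences of 0.09, 0.11 and 0.12. Nearest to Cd59a were Rpa3, Prr15 and Fmo2, at 0.09, 0.12 and 0.14, and nearest to Cd55 were Ccdc173, Cenpj and Itih5l-ps, at 0.05, 0.08 and 0.08.

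Per annotated exon length, the membrane inhibitor Cd59a had the highest mean of the members in AAV-GFP islets, at 7.67 ± 2.58 CPM per kb (SD, n = 4). C3 followed at 3.62 ± 1.47, Cfb at 3.32 ± 2.42, Cfi at 1.19 ± 0.366, Cfp at 1.18 ± 0.605, C3ar1 at 0.771 ± 0.197, C5ar1 at 0.697 ± 0.0985 and Cd55 at 0.437 ± 0.0441 CPM per kb. Neighbours in this order overlapped over the AAV-GFP libraries, except C5ar1, at 0.594 to 0.805, and Cd55, at 0.394 to 0.482 CPM per kb. C3, at 2.33 to 5.71 CPM per kb, lay above the highest Cfi value, 1.69 CPM per kb. The place of Cfb in this order is uncertain in both groups. Gm20547 shares most of its exon bases, and the level of Cfb per length may be understated.

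Under AAV-Adipsin, Cfd led this order with 60.2 ± 44.8 CPM per kb of exon (SD, n = 3), followed by Cd59a at 6.38 ± 0.892. The length used for Cfd is that of the mouse's own exons, and the length of vector transcripts is not known here. Per exon length, Cfd exceeded C3 by 53.8-fold, 4.30-fold and 8.10-fold in AAV-Adipsin replicates 1 to 3. Against the transcript of its substrate, Cfb, the ratio per length was 552.2, 4.49 and 6.41 in the same libraries. These ratios to Cfb may be overstated, since reads of the exon bases that Cfb shares with Gm20547 may not all be counted. The high ratios belong to AAV-Adipsin replicate 1, which had both the highest Cfd and the lowest Cfb of its group.

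**Figure D4:**
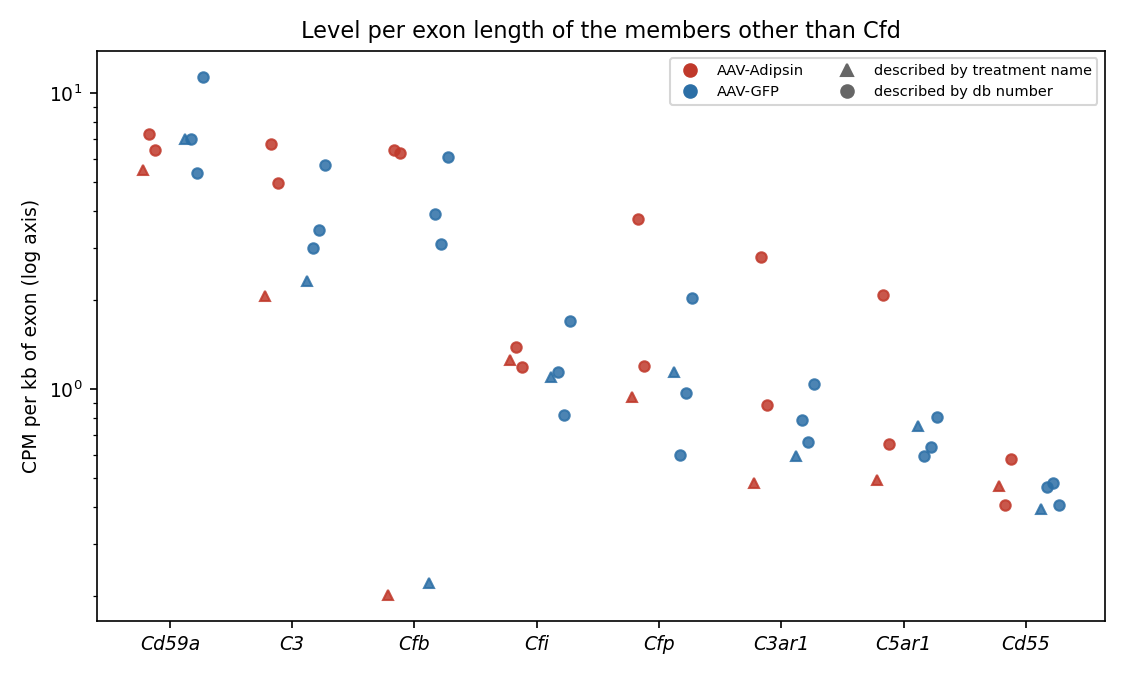
Level of the 8 members other than Cfd in CPM per kb of exon (log axis), ordered by their mean in AAV-GFP, with AAV-Adipsin libraries left of AAV-GFP libraries for each gene. Cd59a is at 5.36 to 11.4 CPM per kb in AAV-GFP and Cd55 at 0.394 to 0.482, and Cfb in the libraries described by treatment names (triangles) is at 0.202 and 0.220.

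Beyond the 9 members, 26 other complement genes were examined, of which 13 passed the filter on low counts. None was called in either direction by edgeR, none had an unadjusted p under 0.05, where 1.16% of all genes tested did, and DESeq2 called none. Their median log2 fold change was -0.06, with 4 of 13 above 0.

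Among regulators of the convertases and of the attack complex, Clu, the secreted chaperone clusterin, averaged 1462 ± 1027 CPM in AAV-Adipsin islets and 1602 ± 856 CPM in AAV-GFP islets (SD, n = 3 and 4, as for all values of this kind that follow). Clu was highest in AAV-Adipsin replicate 2, at 2648 CPM, and AAV-GFP replicate 3, at 2856 CPM. These libraries also had the highest summed levels of 12 acinar cell markers, 12897 and 17898 CPM. The part of acinar cells in the Clu values was not tested. Cr1l, which encodes Crry, the broadly expressed rodent inhibitor of C3 convertases, averaged 89.2 ± 7.41 CPM in AAV-Adipsin and 93.8 ± 13.5 CPM in AAV-GFP. Vtn, encoding vitronectin, stood at 1.88 ± 0.134 CPM in AAV-Adipsin and 3.09 ± 4.48 CPM in AAV-GFP. The wide AAV-GFP spread of Vtn came from AAV-GFP replicate 4, at 9.79 CPM. Cd46 was at 1.08 ± 0.0821 CPM in AAV-Adipsin and 1.21 ± 0.303 CPM in AAV-GFP. Cd59b, a close copy of Cd59a between which the counting could divide reads, was at 0.979 ± 0.135 CPM in AAV-Adipsin and 1.21 ± 0.365 CPM in AAV-GFP, and Cd55b, the copy of Cd55, had no count.

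Of 7 genes of the terminal pathway, 2 passed the filter on low counts. C8b, which encodes the beta chain of component C8, stood at 33.1 ± 5.02 CPM in AAV-Adipsin and 33.9 ± 4.72 CPM in AAV-GFP, and C8g at 3.10 ± 1.21 CPM in AAV-Adipsin and 3.28 ± 1.22 CPM in AAV-GFP. C6 had 8, 6 and 3 counts in AAV-Adipsin and 10, 0, 4 and 2 in AAV-GFP, and C7 had 2, 8 and 10 counts in AAV-Adipsin and 3, 1, 1 and 14 in AAV-GFP, in both cases above the floor of 3 counts in at least 1 library of each group. Hc, the mouse gene of C5, had 0, 1 and 1 counts in AAV-Adipsin and 0, 1, 0 and 0 in AAV-GFP, and C8a and C9 had none in any library.

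Among receptors and processing enzymes, Cpn1, the catalytic chain of the carboxypeptidase that inactivates C3a and C5a, stood at 154.5 ± 12.2 CPM in AAV-Adipsin and 161.0 ± 9.76 CPM in AAV-GFP, while Cpn2, its regulatory chain, had no count. Cpb2, a further carboxypeptidase with that activity, was at 20.3 ± 2.12 CPM in AAV-Adipsin and 21.1 ± 3.90 CPM in AAV-GFP. Of the chains of the receptors for cleaved C3b, Itgax was at 5.24 ± 0.250 CPM in AAV-Adipsin and 4.89 ± 1.33 CPM in AAV-GFP. Itgb2 was at 8.71 ± 6.38 CPM in AAV-Adipsin and 5.33 ± 1.02 CPM in AAV-GFP. Itgam was at 1.80 ± 2.43 CPM in AAV-Adipsin and 0.825 ± 0.441 CPM in AAV-GFP. Both were highest in AAV-Adipsin replicate 2, at 15.9 and 4.60 CPM. C5ar2, a further receptor for C5a, had 3, 22 and 10 counts in AAV-Adipsin and 9, 1, 5 and 8 in AAV-GFP and did not pass the filter.

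**Figure D5:**
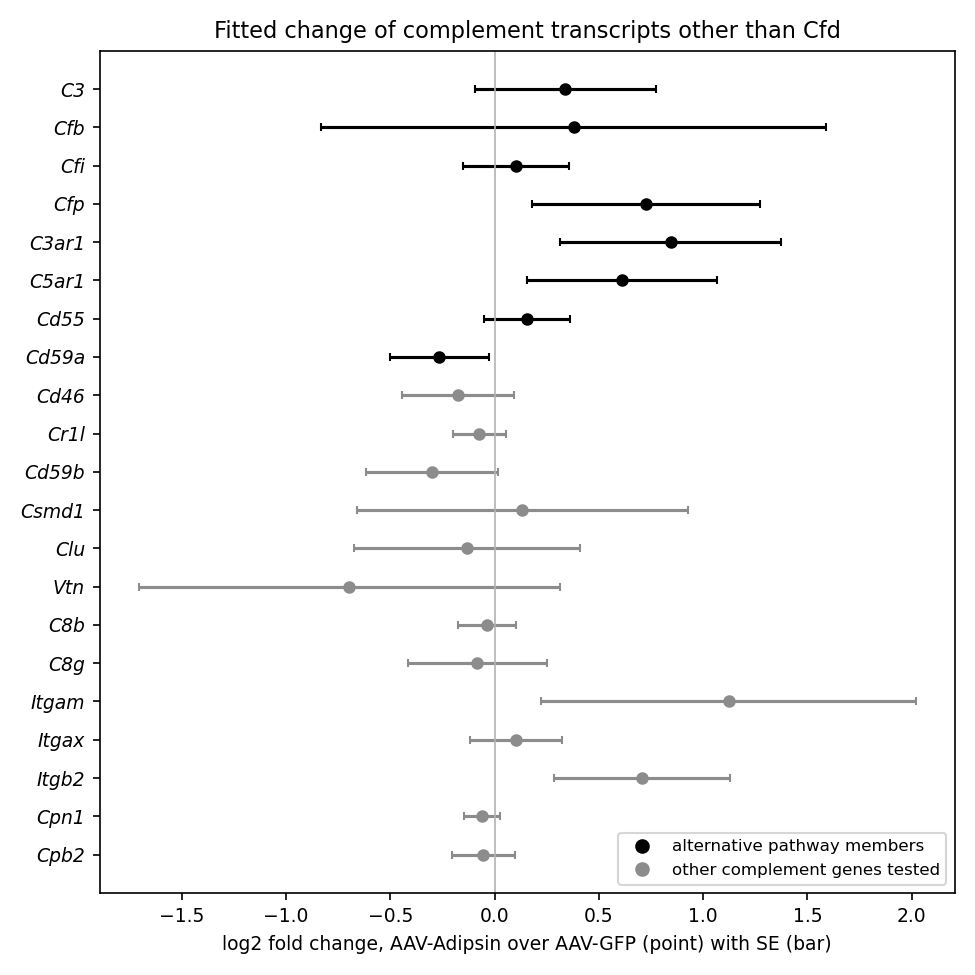
Log2 fold change, AAV-Adipsin over AAV-GFP, fitted by edgeR (points) with its SE (bars) for the 8 members other than Cfd (black) and 13 other complement genes (grey). The points run from -0.70 for Vtn to 1.12 for Itgam, and none passed the threshold.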

How the data were processed

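Per the labels' protocols, RNA of cultured islets was made into libraries with a stranded mRNA kit, and STAR aligned the reads to mm10 (GRCm38), per the submitters' processing notes. No source used here gives the program that counted reads, whether it used strand, or its annotation. The authors deposited whole-number read counts per gene, not normalised. Symbols, coordinates and exon lengths came from GENCODE mouse release 21 (M21), which matched 51719 of 51912 identifiers, and promoters from RefSeq (GRCm38.p6).

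Counts were tested in R 4.3.3 with edgeR 4.0.16: filterByExpr, TMM scaling, robust quasi-likelihood, two-sided, adjusted over 16504 genes. The SE came from the F statistic, and log2 CPM carried a prior count of 2. Alternatives used DESeq2 1.42.0, limma 3.58.1 (voom), other scalings, filters and batch or block terms, and fits without libraries. The tests were tried on simulated counts, which held no shift by description style and so do not show how the tests fare under it. Genes of similar pattern were the 3 with the smallest root mean square difference and at least 1 CPM. All members were named, and of the other complement genes those with a mean of at least 1 CPM. Those named below that level, by counts, were chosen after their values were seen. The members and lists were chosen with earlier results of these data known. One complement gene of the list is not reported here.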

Additional observations from a re-analysis of the deposited data

How the results depend on the processing

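No member other than Cfd and no other complement gene was called under any of the alternatives run. Cfd stayed fitted as higher under each. The size of its log2 fold change depends on how a fit treats counts near 0, and no alternative varied a prior count. In log2 CPM, with their prior count of 2, Cfd differed by 10.37 between the treatment-named libraries and by 9.15 between the db-numbered ones. Its edgeR call was lost without a filter on low counts (log2 fold change 12.38, adjusted p = 0.667), with limma-voom (11.30, adjusted p = 0.834) and without the 2 treatment-named libraries (13.09, adjusted p = 0.0734), where 0 members were called higher. With single libraries left out, the log2 fold change of Cfd ran from 11.57 to 13.92 and 0 or 1 members were called higher. The lower and higher ends of the log2 fold changes with single libraries left out were -0.032 and 0.69 for C3, -0.021 and 0.94 for Cfb, -0.14 and 1.10 for Cfp, -0.16 and 1.25 for C3ar1, -0.27 and 0.96 for C5ar1, -0.040 and 0.32 for Cfi, 0.014 and 0.27 for Cd55, and -0.40 and -0.013 for Cd59a. For C3, Cfb, Cfp, C3ar1 and C5ar1 the lowest value came without AAV-Adipsin replicate 2, and Cfb was at -0.01 without AAV-GFP replicate 1. With the replicate number as a block, Cfd was at 12.27 (edgeR adjusted p = 7.33e-07) and no other call changed. The correlation of deviations across genes was 0.66 for the libraries numbered 1, -0.01 for those numbered 2 and 0.01 for those numbered 3. Between libraries of unlike number it ran from -0.51 to 0.31. The values for numbers 2 and 3 thus showed no sign of pairing, but they do not decide whether those libraries are paired. Number 1 cannot decide either, since both its libraries are described by a treatment name. DESeq2 with description style as a batch was added after the data were seen and called Cfd (adjusted p = 1.41e-34). With 3 and 4 mice a group, the SEs were 0.44 to 1.21 on the log2 scale for C3, Cfb, Cfp, C3ar1 and C5ar1 (0.24 for Cfb with description style as a batch). A change of several SEs could go uncalled, since Cfd, at 12.38 with an SE of 0.93, had an adjusted p of 0.0420. In depth, some libraries held as few as 22 counts of Cfb and 32 of Cfp.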
